A study of Mus musculus with 17 samples.

Results

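The sites described here were CpG-rich positions inside genes that carried almost no DNA methylation in the blood of young mice. Each site is a CCCGGG hexamer on an autosome, read at least 100 times in at least 13 of 17 mice. A site was taken when its mean methylation over the young mice was below 5%, when the 500 bp around it reached 50% GC and a CpG ratio of 0.6 (observed over expected), and when it lay in a GENCODE gene but outside the window from 1000 bp before to 500 bp after every transcription start. Of 15742 retained autosomal sites, 1268 met these conditions and lay in 737 genes, 376 of which held a single site. The young values chose the sites, so comparisons with the young mice are given below as descriptions. The difference between the old groups is the one that the choice did not use. Its p-values are not fully free of the choice, because the test took its estimate of spread from all 17 mice.

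DREAM (digital restriction enzyme analysis of methylation) was applied to whole blood DNA of C57BL/6 mice. SmaI, which methylation blocks, cuts a CCCGGG site first, and XmaI then cuts what remains, so the fragment end tells a methylated from an unmethylated molecule. Methylation is given here as methylated reads over all reads of a site in percent, with a value from fewer than 100 reads left out. The test between groups used all read counts, also those below 100 reads. The AL-young group held 5 mice fed ad libitum at 4 months (2 females, 3 males), the AL-old group held 7 mice fed ad libitum at 29 to 33 months (5 females, 2 males), and the CR-old group held 5 mice under caloric restriction at 32 to 38 months (2 females, 3 males). The CR-old mice were thus as old as or older than most AL-old mice. No genetic alteration is given for any mouse.

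Total reads per mouse ran from 6427598 to 52015913, and a gene body site had a median of 496 reads per mouse. At 100 reads and 50% methylation the 95% Wilson interval runs from 40.4 to 59.6%, which covers counting error only. The authors scaled each mouse by methylation standards added to its DNA, and the resulting correction factor of the odds was 1.3 or more in 6 mice, the 5 female AL-old mice and CR-old 06. The female AL-old mice were 29 to 30 months old and the male AL-old mice 33 months. Correction, sex and age therefore cannot be told apart among the AL-old mice. A high factor was more common in AL-old than in CR-old mice. The group means and the count of called sites are therefore given below with and without the mice with a high factor.

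CpG islands are stretches of DNA where CpG has not been eroded. Most lie at gene starts and stay free of methylation in healthy cells, while the CpG-poor body of an active gene is usually methylated. Islands inside genes can act as alternative starts or enhancers, and many belong to developmental regulators that Polycomb complexes keep silent. In blood, islands of such genes are known to gain methylation slowly with age, and caloric restriction is a diet known to extend the life of mice.

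To show what such a site looks like, 120 bases of the plus strand of mm9 (NCBIM37) around 9 sites are printed with the CCCGGG in capitals. The first 5 are sites that were lower in every CR-old than in every AL-old mouse, the next 2 are Ebf3 and the highest of 4 Foxd1 sites, which were lower in CR-old, and the last 2, in Dusp4 and Pitx3, were among the most deeply read sites that stayed below 2% in every mouse.
Ugt8a, intron, chr3:125640805-125640924: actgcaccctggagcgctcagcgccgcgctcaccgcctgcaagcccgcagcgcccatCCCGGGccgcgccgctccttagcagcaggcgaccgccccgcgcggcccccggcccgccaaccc
Foxa1, coding exon, chr12:58644031-58644150: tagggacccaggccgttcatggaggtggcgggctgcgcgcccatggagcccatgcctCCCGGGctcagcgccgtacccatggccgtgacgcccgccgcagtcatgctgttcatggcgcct
Bhlhe22, coding exon, chr3:17955300-17955419: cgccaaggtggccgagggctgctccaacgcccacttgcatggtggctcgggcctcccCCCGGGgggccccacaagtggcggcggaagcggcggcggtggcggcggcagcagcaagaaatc
Peli2, intron, chr14:48741096-48741215: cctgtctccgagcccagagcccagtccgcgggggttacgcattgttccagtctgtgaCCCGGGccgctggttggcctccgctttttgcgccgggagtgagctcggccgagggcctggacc
Rictor, intron, chr15:6659163-6659282: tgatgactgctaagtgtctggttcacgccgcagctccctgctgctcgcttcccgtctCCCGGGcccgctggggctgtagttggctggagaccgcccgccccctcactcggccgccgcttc
Ebf3, intron, chr7:144500912-144501031: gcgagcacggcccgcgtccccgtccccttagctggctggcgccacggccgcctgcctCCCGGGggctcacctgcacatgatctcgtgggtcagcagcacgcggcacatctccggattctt
Foxd1, coding exon, chr13:99125579-99125698: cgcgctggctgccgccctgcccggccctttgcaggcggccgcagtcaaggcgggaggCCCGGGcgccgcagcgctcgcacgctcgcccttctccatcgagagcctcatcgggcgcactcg
Dusp4, intron, chr8:35871354-35871473: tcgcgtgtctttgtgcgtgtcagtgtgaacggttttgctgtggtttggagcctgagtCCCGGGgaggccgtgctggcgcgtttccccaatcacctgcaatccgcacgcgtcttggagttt
Pitx3, coding exon, chr19:46210911-46211030: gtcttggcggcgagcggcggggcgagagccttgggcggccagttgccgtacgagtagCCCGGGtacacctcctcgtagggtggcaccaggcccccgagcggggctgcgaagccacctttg
The Ugt8a window held 18 CpG in its 120 bases, the Foxa1 and Bhlhe22 windows 12 each, the Peli2 and Rictor windows 11 each, and the steady Dusp4 window also 11.

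The 1268 sites had a median GC content of 67% and a median CpG ratio of 0.795, with a median of 43 CpG in the 500 bp window. Introns held 827 of them (65.2%), coding exons 320 (25.2%), untranslated regions 105 and noncoding exons 16. The nearest transcription start was a median of 831 bp away, and 764 sites (60.3%) lay between 501 and 1000 bp from it and so just past the promoter limit. A further 260 lay up to 2000 bp away, 174 up to 10000 bp and 70 beyond. Most sites, 1181, lay downstream of the nearest start. Neighbours were common, since 869 sites had another of the 1268 within 500 bp.

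In young mice the typical site was close to free of methylation, with a median site mean of 0.216%, and 869 sites (68.5%) had a mean below 0.5%. No methylated read was seen in any AL-young mouse at 117 sites. The sites also stayed low in most old mice, and 743 never reached 2% in any of the 17 mice. The mean over the sites was 0.602 ± 0.0721% in AL-young mice (SD, n = 5), with a range from 0.518 to 0.689%. In AL-old mice it was 2.06 ± 1.89% (SD, n = 7), with values of 0.486% in AL-old 08, 1.59% in 09, 0.971% in 10, 1.64% in 13, 2.33% in 14, 1.26% in 25 and 6.13% in 27. In CR-old mice it was 0.771 ± 0.192% (SD, n = 5), with values of 0.959% in CR-old 02, 0.450% in 06, 0.773% in 19, 0.837% in 20 and 0.836% in 22.

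All AL-old mice but AL-old 08 lay above every CR-old mouse and above every AL-young mouse, while AL-old 08 lay below every AL-young mouse and below all CR-old mice but 06, and AL-old 27 stood far above the rest. With the odds multiplied by the correction factor, a choice added after the data were seen, AL-old 08 no longer stood below the young mice. The mean was then 0.620 ± 0.0303% in AL-young, 2.85 ± 1.71% in AL-old with a lowest mouse at 1.11%, and 0.840 ± 0.0273% in CR-old mice. Every CR-old mouse (0.7945 to 0.8648%), CR-old 06 included, then lay above every AL-young mouse (0.5843 to 0.6612%). Among mice with a correction factor below 1.3 the 2 AL-old mice had 1.26 and 6.13%, and the 4 CR-old mice had 0.851 ± 0.0781% (SD, n = 4). The difference of CR-old minus AL-old was -1.29 points over all mice, -0.697 among females and -2.88 among males, of which 2 were AL-old. Among the AL-old mice, this split by sex was also a split by age and by class of correction. AL-old 27 was a male and had the fewest total reads (6427598). Without AL-old 27, CR-old minus AL-old was -0.607 points over the remaining mice, and AL-old minus AL-young went from 1.46 to 0.777 points.

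**Figure D1:**
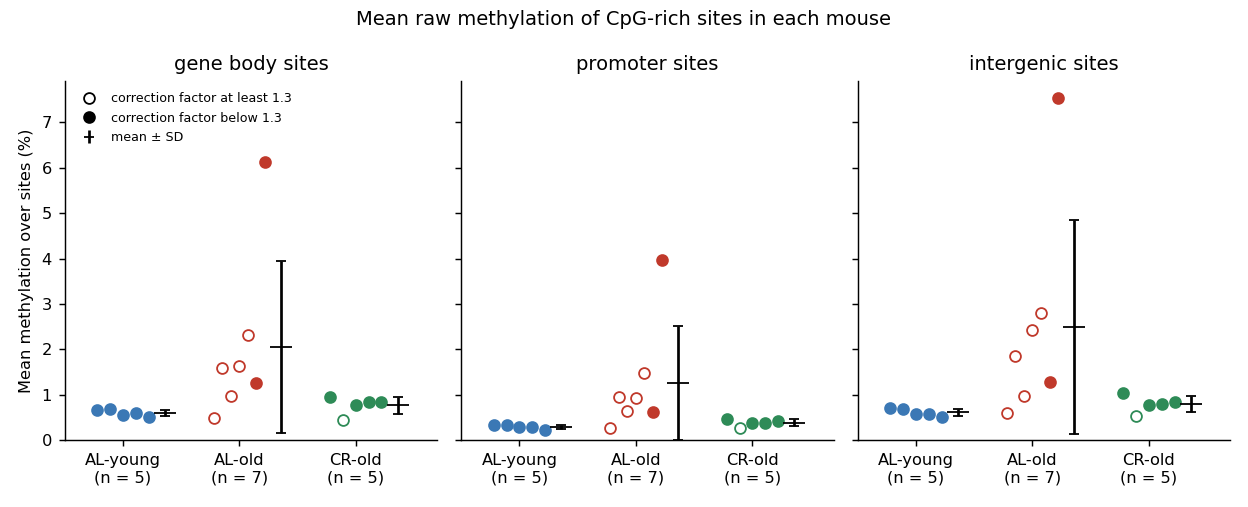
Mean raw methylation in percent over the CpG-rich sites of each mouse, for 1268 gene body, 6853 promoter and 427 intergenic sites chosen by the same young, GC and CpG limits. Each point is a mouse, open where the correction factor was at least 1.3, and the bar is the group mean ± SD. In all 3 panels AL-old 27 stood highest, and on these raw values the CR-old mean lay closer to the AL-young than to the AL-old mean.

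The same order was seen in promoter and intergenic sites chosen by the same limits. Promoter sites had means of 0.303 ± 0.0425% in AL-young, 1.27 ± 1.25% in AL-old and 0.386 ± 0.0785% in CR-old mice. Intergenic sites had means of 0.620 ± 0.0788%, 2.50 ± 2.35% and 0.800 ± 0.183% in the same groups. Gene body sites were closer in mean to intergenic than to promoter sites in each group, and these differences were not tested. Within the 474 genes that held both a promoter site and a gene body site, the fall from AL-old to CR-old was the larger in the body in 212 genes, and its median was 0.0173 points in the body and 0.0190 points in the promoter.

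The old mice differed in how many sites had moved far, and a small number of sites held most of the difference. A level of 20% or more was reached at 0 sites in each AL-young mouse, and at 2, 16, 5, 26, 45, 1 and 116 sites in AL-old 08, 09, 10, 13, 14, 25 and 27. Among CR-old mice such a level was seen only at 1 site in CR-old 19. In AL-old 27 the share of sites at 20% or more was 10.4% here, beside 6.91% of promoter and 10.9% of intergenic sites. AL-old 27 shared 13 of the 16 high sites of AL-old 09, 20 of the 26 of AL-old 13 and 34 of the 45 of AL-old 14. The 34 shared sites were 29.3% of the high sites of AL-old 27 and 75.6% of those of AL-old 14.

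A second count used the AL-young mice as a ceiling, taking sites that exceeded the highest AL-young value by more than 2 points. It came to 24, 144, 76, 103, 153, 84 and 345 sites in AL-old 08, 09, 10, 13, 14, 25 and 27, and to 37, 20, 25, 26 and 28 in CR-old 02, 06, 19, 20 and 22. Of the 1268 sites, 833 passed the ceiling in no AL-old mouse, 192 in 1 mouse, 66 in at least 4 and 5 in all 7. The 5 were in Rims1, Agap1, Ugt8a, Ebf3 and Foxa1. The choice of sites held the AL-young values low, and this count was not made over all retained sites, so nothing is read from it. Like the count at 20%, it used raw values without the correction factor, which was 3.19 in AL-old 08 and 3.96 in AL-old 13. The 127 sites with the largest falls from AL-old to CR-old made up 75.9% of the summed difference between the old groups, and 834 sites differed by under 0.5 points in either direction.

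**Figure D2:**
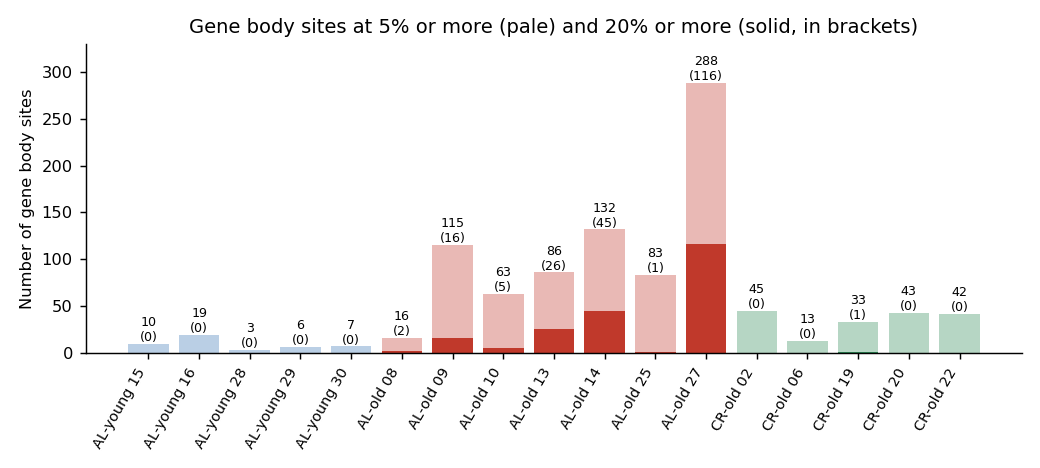
Number of the 1268 gene body sites at 5% or more (pale bar, upper number) and at 20% or more (solid bar, number in brackets) in each mouse. AL-young mice had 3 to 19 sites at 5% or more, AL-old mice 16 to 288 and CR-old mice 13 to 45.

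The effect of diet was tested between the CR-old and AL-old mice in 1 model over all 15742 sites, with methylated and unmethylated read counts fitted by edgeR and Benjamini-Hochberg adjustment. A site was called at an adjusted p under 0.05 with group means at least 2 points apart. Methylation was lower in CR-old mice at 25 of the 1268 sites (1.97%) and higher at 1 (0.0789%). Over all retained sites 1.77% were called lower and 1.65% higher, so the share of gene body sites called lower was close to the background. These shares are not like for like. At 743 of the 1268 sites no mouse reached 2%, so they could not be called in either direction. The retained sites span all levels, with an AL-old mean of 25.0%. The share among promoter sites was 1.82% and among intergenic sites 4.22%, and the differences between these shares were not tested. The median difference of CR-old minus AL-old was -0.0356 points over the 1268 sites and 0 over all retained sites.

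The 25 sites lay in 19 genes, with 13 in introns, 11 in coding exons and 1 in an untranslated region. All 25 were also called higher in AL-old than in AL-young mice, a comparison that shares the AL-old values. The difference of CR-old minus AL-old ran from -2.12 to -36.1 points, and they together held 21.9% of the summed difference. The count of 25 changed to 96 with the correction factor as an offset, 10 with the class of correction (high or low) as a covariate, 20 in the 11 mice with a low factor and 14 with limma. With only the 2 old groups in the fit, so that the young mice did not enter the spread, it was 13. The 6 mice with a high factor held 1 CR-old mouse and were not fitted alone. The count was 40 without AL-old 08, 52 without AL-old 25, 16 without AL-old 09, 15 without AL-old 14, 15 without CR-old 02, 10 without CR-old 19, 7 without CR-old 20 and 7 without CR-old 22. The share over all retained sites is not given for these alternative fits, so the changes are not read as particular to the gene body sites.

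**Figure D3:**
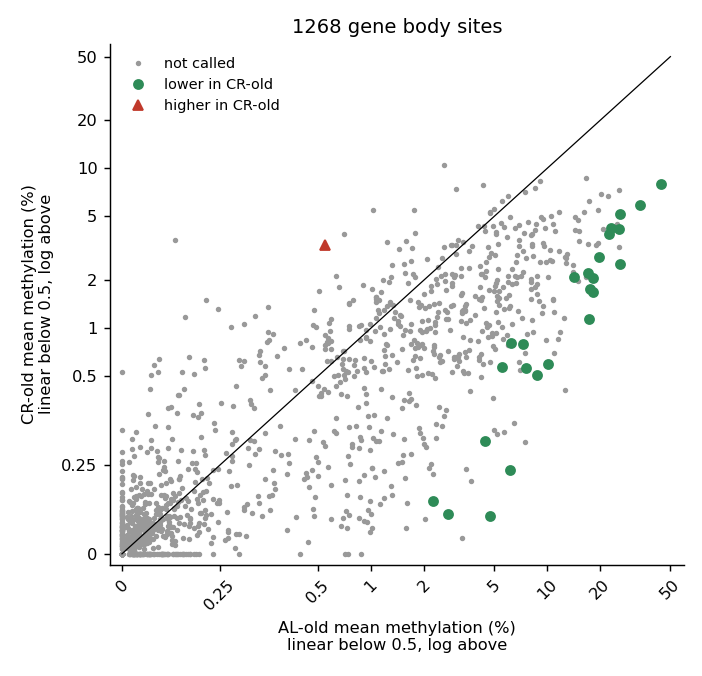
Mean methylation of each of the 1268 gene body sites in CR-old (y axis) against AL-old mice (x axis), both in percent, linear below 0.5 and logarithmic above, with the line of equality. Green circles are the 25 sites lower in CR-old and the red triangle is the 1 site higher in CR-old, in Selm.

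The groups did not overlap in any mouse at 8 of the 1085 gene body sites with at least 100 reads in all 12 old mice, with every CR-old mouse below every AL-old mouse (0.737%). Over all retained sites with these reads the share was 0.473%. The reverse order, with the CR-old mice all above the AL-old mice, was seen at 0 of the 1085 sites, beside 0.0913% of all retained sites. Of the 8 sites that were lower in all CR-old mice, 6 passed the test above, in Ugt8a, Foxa1, Bhlhe22, Inhbb, Peli2 and Rictor, and they are described first.

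The largest fall was in Ugt8a (ENSMUSG00000032854.8), which encodes the enzyme that makes galactosylceramide, a lipid of myelin. The site lies at chr3:125640862-125640867 in an intron, 603 bp into the gene. The AL-young mice had 4.41, 7.27, 5.80, 3.24 and 3.94%. The AL-old mice had 16.6, 38.2, 49.9, 72.7, 57.2, 12.6 and 61.8% in AL-old 08, 09, 10, 13, 14, 25 and 27. The CR-old mice had 9.24, 9.89, 7.59, 6.17 and 7.19%, so that the old groups were separate, and 3 of the 5 CR-old values lay above all young values. The lowest AL-old mouse, AL-old 25, had a 95% Wilson interval from 8.01 to 19.2%. The group means were 44.1 and 8.01%, a log2 odds ratio of -3.13 ± 0.685 (SE) and an adjusted p of 0.00416 by edgeR. The adjusted p was 0.0529 with correction as a covariate and 0.0616 in the mice with a low correction factor.

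The Foxa1 and Bhlhe22 sites lay in genes of transcription factors. Foxa1, a pioneer factor of endodermal organs, was read in a coding exon at chr12:58644088-58644093, 3017 bp from the nearest start. Its AL-old values were 5.91, 8.50, 12.6, 36.5, 49.0, 6.79 and 37.6%, and its CR-old values were 4.70, 3.91, 2.37, 4.57 and 3.76%. The AL-young mice lay between 1.35 and 3.35%, and 4 of 5 CR-old mice were above all of them. The log2 odds ratio between the old groups was -2.45 ± 0.702 with an adjusted p of 0.0321 by edgeR. The adjusted p became 0.0732 with correction as a covariate and 0.102 with only the 2 old groups in the fit.

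Bhlhe22, a basic helix-loop-helix factor of neurons, was read in its coding exon at chr3:17955357-17955362. The AL-old mice had 2.16, 12.2, 3.26, 1.83, 24.6, 2.06 and 24.8%. The CR-old mice had 1.06, 1.08, 0.565, 0.276 and 0%, and the AL-young mice had 0 to 0.889%. CR-old and AL-young values overlapped while all AL-old mice were higher. The 0 in CR-old 22 came from 192 reads, which allows a level of up to 1.56%. The log2 odds ratio between the old groups was -3.60 ± 0.862 and the adjusted p was 0.00952 by edgeR.

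Inhbb encodes a subunit shared by activins and inhibins. Its site, at chr1:121318145-121318150 in an untranslated region, had 2.08, 9.54, 1.15, 4.59, 6.32, 1.06 and 36.2% in the AL-old mice and 0.685, 0.277, 0, 0.784 and 0.787% in the CR-old mice. The gap between the groups was 1.06 against 0.787%, and AL-old 27 stood far above the other AL-old mice. The log2 odds ratio was -3.43 ± 0.856 and the adjusted p 0.0130 by edgeR, or 0.0617 without CR-old 19.

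Peli2 encodes a ubiquitin ligase of Toll-like and interleukin-1 receptor signalling. In its intron at chr14:48741153-48741158 the AL-old mice had 4.36, 1.61, 1.01, 1.97, 5.84, 1.78 and 22.1% and the CR-old mice 0.922, 0.844, 0.512, 0.404 and 0.193%. The lowest AL-old mouse stood at 1.01% against 0.922% in the highest CR-old mouse. The adjusted p of 0.0410 by edgeR became 0.0667 without AL-old 27, 0.139 without CR-old 22 and 0.114 with only the 2 old groups in the fit.

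Rictor encodes a subunit of the mTORC2 kinase complex, and 2 of its intron sites were lower in CR-old. At chr15:6659220-6659225 the AL-old mice had 0.633, 1.17, 0.560, 5.81, 2.23, 0.987 and 7.75% and the CR-old mice 0, 0.120, 0.205, 0 and 0.237%. The AL-old values were low but lay above all CR-old and all AL-young values, with an adjusted p of 0.00898 by edgeR. Each CR-old value rested on 0 or 1 methylated read of 358 to 833 reads, and 0 of 358 reads allows a level of up to 0.838%. At chr15:6659421-6659426 the AL-old values reached further, from 1.45% through a median of 3.98% to 58.5%, and CR-old mice had 0.222 to 3.31%, so that the groups overlapped (adjusted p = 0.0285 by edgeR).

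**Figure D4:**
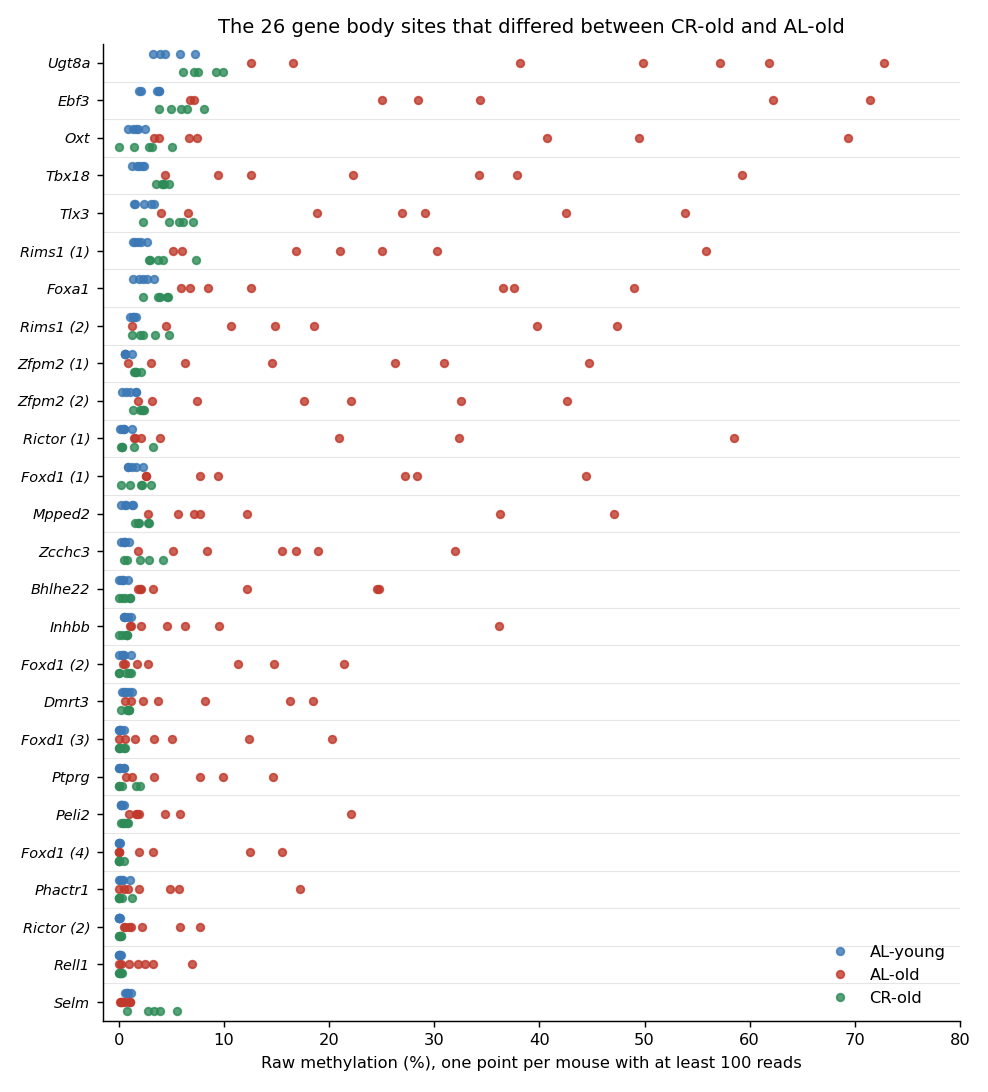
Raw methylation in percent at the 26 gene body sites called between CR-old and AL-old mice, ordered by the difference of the means, with a point for each mouse with at least 100 reads. Numbers in brackets tell sites of the same gene apart. The AL-old mice spread widely at each of the 25 upper sites, from 12.6 to 72.7% at Ugt8a, while the CR-old mice stayed below 10%.

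At the other called sites the lowest AL-old mice overlapped with CR-old mice. The Ebf3 site, in an intron of a neural transcription factor gene at chr7:144500969-144500974, had AL-old values from 6.80% through a median of 28.4% to 71.4%. Its CR-old values were 4.97, 3.83, 8.16, 5.93 and 6.53%, and the means differed by -27.8 points (adjusted p = 0.0202 by edgeR). Oxt, the gene of the hormone oxytocin, had 69.4, 40.7 and 49.5% in AL-old 13, 14 and 27 but lay between 3.35 and 7.45% in the remaining AL-old mice and between 0 and 5.12% in CR-old mice. Tbx18, a T-box factor of heart and urogenital development, had AL-old values from 4.405 to 59.2% and CR-old values from 3.595 to 4.77%, a difference in means of -21.5 points (adjusted p = 0.0202 by edgeR). Tlx3, a homeobox factor of sensory neurons, differed by -20.8 points. With correction as a covariate the adjusted p by edgeR was 0.057 at Ebf3 and 0.0727 at Tbx18. In the mice with a low correction factor it was 0.0963 and 0.0925 in the same order.

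Several genes held more than 1 called site. Rims1, a scaffold of the presynaptic active zone, had sites in a coding exon 62668 and 62430 bp from the nearest start, with differences between the old groups of -18.7 and -16.8 points. Zfpm2, a partner of Gata factors, had a pair of intron sites with differences of -16.4 and -16.2 points, and CR-old means of 1.69 and 2.05%. Foxd1, a forkhead factor of the kidney stroma, had 4 sites over 900 bp of its coding exon, and all 4 were lower in CR-old. The AL-old means of the 4 sites were 7.596, 6.19, 17.5 and 4.75% in the order of position, against CR-old means of 0.567, 0.236, 1.75 and 0.106%. At the third of them, the one printed above, the AL-old mice had 2.63, 27.2, 7.73, 28.4, 2.58, 9.44 and 44.4% and the CR-old mice 2.18, 0.211, 1.06, 3.12 and 2.16%. AL-old 08 and 14 overlapped there with CR-old 20. These sites share a gene and a stretch of DNA and are not independent of each other.

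The remaining sites lower in CR-old were in Mpped2, Zcchc3, Dmrt3, Ptprg, Phactr1 and Rell1, with differences of -14.8, -12.02, -6.47, -5.47, -4.14 and -2.12 points. Dmrt3 is a factor of spinal cord neurons and Ptprg a receptor-type tyrosine phosphatase. The Ptprg difference leaves out AL-old 27, which had 37.1% from 89 reads and was kept in the test. At all 6 sites the CR-old mean was between 0.148 and 2.22%. The single site that was higher in CR-old lay in an untranslated region of Selm, which encodes a selenoprotein of the endoplasmic reticulum. CR-old mice had 2.75, 0.833, 3.94, 3.38 and 5.57% there against 0.159 to 1.08% in AL-old mice, and the adjusted p was 0.0257 by edgeR. CR-old 06 overlapped with AL-old mice. No site was called higher with correction as a covariate or in the mice with a low correction factor.

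With age, in AL-old against AL-young mice, 86 sites were higher (6.78%) and 1, in Cuedc1, was lower, beside 3.9% and 5.87% of all retained sites. Every AL-old mouse lay above every AL-young mouse at 32 of 1077 sites (2.97%), beside 2.09% of all retained sites. The choice of sites used the AL-young values, so nothing is read from these counts. The 10 genes with the largest differences in means were Ugt8a, Ebf3, Kif21a, Oxt, Tbx18, Tlx3, Astn2, D4Bwg0951e, Rims1 and Foxa1. Kif21a, a kinesin motor, had 0.789% on average in the young, 25.6% in the AL-old and 3.23% in the CR-old group. AL-old 14 and 27 had 68.1 and 67.6% there and AL-old 25 had 1.64%, so the AL-old mice differed widely. Astn2, which acts in the migration of neurons, ran from 4.00 to 63.4% in AL-old mice and from 2.78 to 7.46% in CR-old mice. The largest falls with age were small, in Phlda2 (3.54% in AL-young, 1.09% in AL-old, 1.51% in CR-old), Cuedc1 (3.87, 1.75 and 5.49%) and Zbtb7c (2.21, 0.663 and 1.80%).

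Between CR-old and AL-young mice no site passed the test. edgeR called 0 of the 1268 sites in either direction and 0 of all retained sites (0%), as did limma. At an unadjusted p under 0.05 with means 2 points apart, edgeR passed 7 gene body sites (0.552%), beside 4.12% of all retained sites. Every CR-old mouse lay above every AL-young mouse at 18 of 1217 sites (1.48%), beside 1.21% of all retained sites. Among them, Hic1, a transcriptional repressor and tumour suppressor, had a mean of 0.660% in AL-young mice, 11.1% in the AL-old group and 4.06% in the CR-old group. AL-old 13 had 51.6% at this site, and the AL-old median of 3.565% lay below the CR-old median of 3.89%, so the old groups overlapped. Agap1, a regulator of Arf GTPases, held 5 sites with AL-old means of 4.25 to 12.7%, CR-old means of 1.25 to 2.56% and AL-young means of 0.175 to 0.625%. None of the 5 Agap1 sites was called between the diets.

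Sites were grouped by lists of gene names. The list of forkhead, Sox, Gata, basic helix-loop-helix and zinc finger factors held 118 sites in 48 genes, and 9 (7.63%) were lower in CR-old, in Ebf3, Foxa1, Zfpm2, Foxd1 and Bhlhe22. Over all 1268 sites 1.97% were lower and over all retained sites 1.77%, and 4 of the 9 were the neighbouring Foxd1 sites. The median difference of CR-old minus AL-old in the list was -1.21 points. The list of homeobox, paired and T-box factors held 114 sites in 56 genes, of which 2 (1.75%), in Tbx18 and Tlx3, were lower, a share at the background, with a median difference of -0.620 points. Of 29 sites of Wnt, Bmp, Fgf, Hedgehog and Notch signalling genes 1 was lower, in Inhbb, and Bmp3 had 13.02% in AL-old and 2.92% in CR-old mice with an adjusted p of 0.177 by edgeR. The median over all 1268 sites was -0.0356 points.

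None of 46 sites of neural receptor, channel and adhesion genes was called, at a median difference of -0.0545 points. Of 4 sites in the protocadherin genes Pcdh15 and Pcdh17 none was called either, and the group means were 1.74% in AL-young, 11.4% in AL-old and 2.72% in CR-old mice. Pcdh15 ran from 1.29 to 40.7% in AL-old mice. The 20 sites of blood lineage factors had a median difference of -0.119 points, and Mecom, a factor of haematopoietic stem cells, had 45.8% in the highest AL-old mouse at an AL-old median of 1.52% and a CR-old range from 0 to 0.552%. Bcl11b, a factor of T cells, had 53.6% in the highest AL-old mouse at an AL-old median of 1.302%.

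The remaining lists held few sites. The 8 sites of immune signalling genes had means of 0.814, 0.484 and 0.925% in the 3 groups (young, AL-old, CR-old), and the 21 sites of methylation and chromatin regulators had 0.212, 0.346 and 0.448%. The 8 sites of tumour suppressor genes had 0.587, 2.72 and 1.62%, Hic1 and Cdh13 included, at a median difference of -0.00188 points between the old groups. The 10 sites of housekeeping genes had 0.151, 0.0617 and 0.0985%, and the highest AL-old mouse at the Rps3a site, in a ribosomal protein gene, had 0.193%. No site of these lists was called between the diets. In all, 12 of 371 sites in any list (3.23%) and 13 of 897 sites in none (1.45%) were lower in CR-old.

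**Figure D5:**
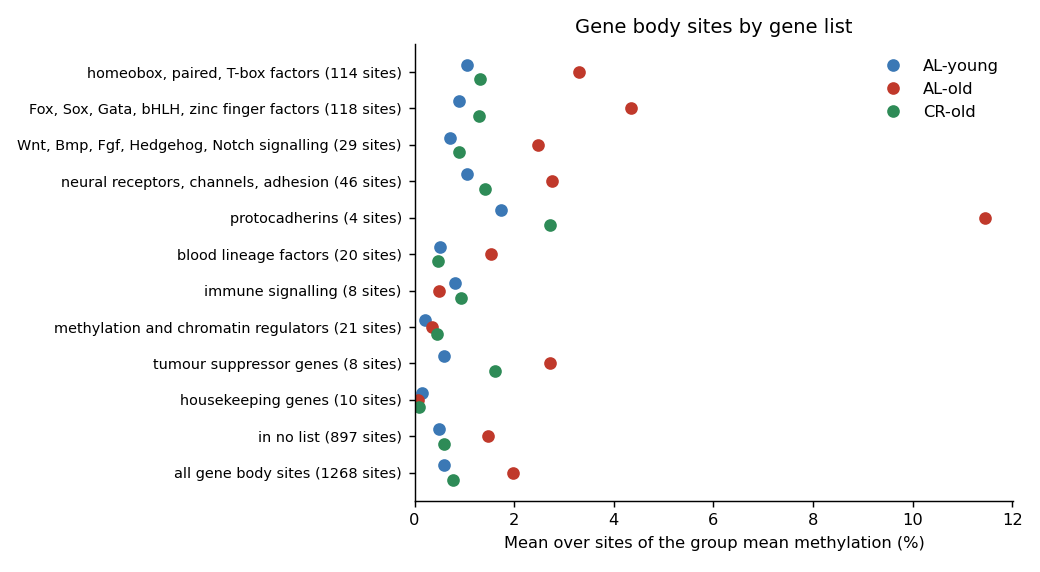
Mean over the sites of each gene list of the group mean methylation in percent, for the 3 groups of mice. The AL-old mean was highest for the protocadherin sites (11.4%) and for the forkhead, Sox, Gata, helix-loop-helix and zinc finger factors (4.35%), and it was 0.0617% for housekeeping genes.

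Whole blood mixes cell types, and the share of each can differ between mice. No gene body site lay in a blood cell marker gene, so 13 retained sites of other kinds at Cd247, Cd3g, Itgam, Prtn3 and Csf1r were read in their place. Their mean ran from 41.5 to 45.4% in AL-young, from 10.4 to 48.4% in AL-old and from 26.2 to 42.4% in CR-old mice. At 1 of 2 Itgam sites, in a gene of myeloid cells, the mean was 91.7% in AL-young, 51.6% in AL-old and 83.1% in CR-old mice, and at 1 of 2 Cd3g sites, in a gene of T cells, it was 87.1, 54.3 and 79.4%. The other Itgam site had 90.2, 95.01 and 88.2% and the other Cd3g site 60.5, 42.1 and 57%. At the 5 sites of Prtn3 and Csf1r, also genes of myeloid cells, the CR-old mean was below the AL-old mean. The site of each gene with the highest level had 89.6, 78.05 and 54.6% in Prtn3 and 61.3, 47.8 and 24.6% in Csf1r. The first site given for Itgam and for Cd3g was called lower in AL-old than in AL-young mice by edgeR, and none of the 13 was called between the diets. Their part in the results above was not tested.

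Position and sequence were weakly related to the difference between the diets. Sites in coding exons had a median difference of CR-old minus AL-old of -0.174 points with 11 of 320 lower (3.44%), and sites in introns of -0.0162 points with 13 of 827 lower (1.57%). The share was 1.97% over all 1268 sites and 1.77% over all retained sites. The 11 held 4 neighbouring Foxd1 sites and 2 neighbouring Rims1 sites, and the difference between exons and introns was not tested. The 70 sites more than 10000 bp from a start had a median of -0.248 points and the 764 sites within 1000 bp of -0.0184 points. Over the 1268 sites, which share mice and neighbouring DNA, Spearman's rho with the difference was -0.0985 for distance from the start, -0.0162 for the CpG ratio and -0.00957 for GC content. The hexamer GGGCGG, bound by Sp factors, was found on either strand in 72.6% of the 500 bp windows and in 19 of the 25 windows called lower, beside 83.4% of all CpG-rich retained windows. CACGTG was in 10.2% of the windows, beside 11% of all CpG-rich windows, and in 0 of the 25. TGACGTCA was in 0.473% of the windows, beside 1.56%.

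The deepest sites that stayed below 2% in every mouse were chosen to show steady low levels. They were in Dusp4, a phosphatase of MAP kinases, Gpbp1, Itgb4, Pitx3 and Rpgrip1, with 962 to 11465 reads per mouse. Dusp4 had means of 0.0867, 0.0578 and 0.0300% in the 3 groups (young, AL-old, CR-old) and a highest mouse at 0.367%. Gpbp1 had 0.0179, 0.0231 and 0.0180%. Genes with many sites could also stay low throughout, as Pitx3, a homeobox factor of lens and dopamine neurons, whose 6 sites had AL-old means of 0.0316 to 0.820%, and Anp32b, whose 5 sites had AL-old means of 0 to 0.108%.

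The limit of 5% in young mice passed between sites of similar level. Just inside were Necab2 at 4.81%, C1ql3 at 4.87% and Ugt8a at 4.93%, and just outside were sites of Hic1 at 5.01%, Dtx1 at 5.15% and Dact3 at 5.24%. Their AL-old means were 5.54, 10.8, 44.1, 5.13, 2.48 and 20.7% and their CR-old means 6.22, 4.50, 8.01, 5.50, 6.82 and 8.15% in the same order.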

How the data were processed

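The authors cut whole blood DNA with SmaI and XmaI, aligned the reads to mm9 and deposited a table per mouse with counts of methylated, unmethylated and total reads at each CCCGGG. The submitters' processing notes name Bowtie2 and SAMtools, without versions, and the builds mm9 and mm10. The deposited raw percent adds 0.5 methylated reads, while the adjusted percent, scaled by the authors on spiked standards, multiplies the odds by a constant of the mouse, the correction factor. Raw percent without the added reads was used, because the added reads alone, times the factor, gave up to 0.375%. That value is at the median depth of a mouse over its gene body sites with at least 100 reads. All sites lay on CCCGGG in NCBIM37, the assembly also called mm9, and gene models were GENCODE M1.

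Groups came from the labels alone. The gene body sites and the gene lists were chosen with earlier results of these data known. edgeR 4.0.16 in R 4.3.3 fitted read counts of 15742 sites with a coefficient for each mouse, 3 groups and 1 common dispersion of 0.290, by its quasi-likelihood test with Benjamini-Hochberg adjustment, and limma 3.58.1 was an alternative. The SE given with a log2 odds ratio was its absolute value divided by the square root of the F statistic of the test. The fits were tested on simulated data. Named sites were, between the diets, up to 12 called sites with the largest difference among those with separate groups (1 per gene or 10 kb), the 10 largest and 3 lowest differences with age, 2 per gene list, the 5 deepest below 2%, 3 on each side of the 5% limit, and genes with at least 4 sites. Other called sites and Selm were named after their values were seen. No pair of mice had identical counts. Python 3.11.15, pandas 2.3.3 and matplotlib 3.10.9 were used for the remaining steps.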

Additional observations from a re-analysis of the deposited data

Results flagged for a closer look

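In groups of 5 or 7 mice, 7 of 47 groups of values had a highest or lowest mouse set apart from the others by more than Dixon's 95% critical value. AL-old 27 was the high mouse in 5 of them. Its mean over the gene body sites was 6.13%, and it had 116 sites at 20% or more. It had 36.2% at the Inhbb site, 22.1% at the Peli2 site and 74.6% at the D4Bwg0951e site. CR-old 19 was the only CR-old mouse with any site at 20% or more, with 1 site. AL-young 15 had 0.167% at the Rictor site at chr15:6659220-6659225, where the other AL-young mice had 0 to 0.0389%. The 47 groups share mice, some hold values near 0, and some sites were named for large differences. The count of 7 is therefore not set against a rate expected by chance.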

How the results depend on the processing

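Of the 25 sites lower in CR-old mice and the 1 higher, the counts were 96 lower with the correction factor as an offset, 10 lower and 0 higher with the class of correction as a covariate, and 0 higher in mice with a correction factor below 1.3. With sex as a covariate 0 were higher, with only the 2 compared groups in the fit 13 were lower and 0 higher, at a minimum of 500 reads 4 of 448 were lower and 0 higher, with limma 14 were lower, and with no minimum difference 2 were higher. Of the 25 sites, 25 kept an adjusted p under 0.05 with the offset, 8 with the covariate, 6 in mice with a low correction factor, 21 with sex and 14 with limma. Leaving out 1 mouse at a time gave 7 to 52 lower and 0 to 5 higher. The cause of these shifts was not tested, and no share over all retained sites is given beside these counts. The log2 odds ratios of the 6 sites with separate groups kept their sign in every alternative that could be fitted. These sites were chosen for separate groups, so leaving out mice could hardly change the sign, and nothing is read from it. The adjusted p by edgeR rose above 0.05 in some alternatives at Ugt8a, Foxa1, Inhbb and Peli2. It stayed under 0.05 in all of them at Bhlhe22 and Rictor.

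For AL-old against AL-young, 146 sites were higher and 0 lower with the offset, 0 lower with the covariate, and 228 higher and 0 lower in mice with a low factor, and leaving out 1 mouse gave 0 to 2 lower. For CR-old against AL-young, 4 sites were higher in mice with a low factor. Sites where the AL-old mice all exceeded the AL-young mice numbered 75 with the adjusted values as deposited, 301 in mice with a low factor, where only 2 AL-old mice remain, and 60 with the corrected odds without added reads, a choice made after seeing the data. Sites where the CR-old mice all lay below the AL-old mice numbered 21, 224 and 15 in the same order, and 8 to 16 without 1 mouse. The share over all retained sites is not given for any of these alternative counts, called or separate, so nothing is read from them. With the median over sites in place of the mean, the difference of CR-old minus AL-old turned to 0.0196 points and that of AL-old minus AL-young to -0.0177. Over the gene body sites with at least 100 reads in a mouse, the median depth ran from 333 to 2612 reads. At these depths 0 methylated reads allow a level of up to 0.115 to 0.901%. Over all gene body sites the median was 293 reads in AL-old 27. No paired analysis was possible because no replicate number is shared between the groups.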
